A study of Mus musculus with 6 samples.

Results

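The NRF2 antioxidant response was examined in Lewis lung carcinoma (LLC) cells through 10 genes of its core: the transcription factor Nfe2l2 (NRF2), its inhibitor Keap1, and the genes Nqo1, Hmox1, Gclc, Gclm, Txnrd1, Srxn1, Gsta4 and Slc7a11, which it is known to control. The genes were found by their symbols among the 18182 genes listed in the files, and 10 of 10 were listed in every library and passed the filter on low counts. LLC is a mouse lung carcinoma cell line. LLC cells carrying a red fluorescent protein (LLC-RFP) were injected under the skin of wild type C57BL/6 mice, either alone (LLC alone, 3 libraries) or together with bone marrow-derived mesenchymal stem cells (LLC+BMSC, 3 libraries). Cells positive for the fluorescent protein were then sorted by flow cytometry from the primary tumor sites and their RNA was sequenced. The labels of the co-injected libraries name mesenchymal stem cells beside the carcinoma cells as their source. For allograft tumors, 6-week-old female mice were used, and whether this also holds for the mice behind these libraries is not stated separately. The number of mice behind a library is not given in the sources used here, so that the p values below measure the spread between these libraries, which may be technical.

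NRF2 is held at a low level by KEAP1, which binds it and presents it to a CUL3 ubiquitin ligase for degradation. Oxidants and electrophiles modify cysteines of KEAP1, NRF2 then accumulates in the nucleus, pairs with small MAF proteins and binds antioxidant response elements near genes for glutathione synthesis, the thioredoxin system, quinone reduction and heme breakdown. Because NRF2 activity is set largely by the stability and location of the protein, the level of the Nfe2l2 transcript is not a measure of that activity. In lung cancers the pathway is known for mutations that keep NRF2 active.

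The response did not move as a unit. In LLC+BMSC, the transcripts of Nfe2l2, Nqo1 and Gsta4 were 1.37-, 1.62- and 1.81-fold lower, and those of Gclm, Txnrd1, Keap1 and Srxn1 were 1.33-, 1.22-, 1.15- and 1.13-fold higher. Hmox1, Gclc and Slc7a11 did not pass the test. Of the 10 genes, 4 rose and 3 fell at an adjusted p under 0.05 (edgeR's quasi-likelihood test, Benjamini-Hochberg adjustment over 13353 tested genes), beside 31.5% of all tested genes called higher and 31.3% called lower. The FPKM values of the groups did not overlap for 7 of the 10 genes, beside 70.6% of all tested genes, so that the number of genes called was close to the background of this comparison. The median log2 fold change of the 10 genes was 0.10, against 0.01 for all tested genes. No gene of the 10 reached an absolute log2 fold change of 1, which 16.1% of all tested genes did.

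Promoter sequences are shown for the 4 genes whose RefSeq promoter window holds the core of the antioxidant response element, the site that NRF2 binds. The 10 genes were chosen by name and not by this pattern. The core was searched as TGACNNNGC on both strands, in 300-base windows that reach from 250 bases before a start site to 50 bases past it. It was found in 4 of 9 windows of 7 genes, beside 12.4% of all 32851 windows and 14.3% of those of tested genes. Hmox1, Gclc and Gsta4 have no window in the table used. The 250 bases before the start are printed from RefSeq (GRCm38.p6), 5′ to 3′ along the gene, with the match in capitals. In Srxn1 the core, as searched, lies 28 bases past the start, outside the printed stretch. The capitals in its printed stretch mark TGANTCA, the letters of an AP-1 site, which also begin with TGA and can overlap the core.
Nfe2l2, chr2:75704664-75704913, minus strand: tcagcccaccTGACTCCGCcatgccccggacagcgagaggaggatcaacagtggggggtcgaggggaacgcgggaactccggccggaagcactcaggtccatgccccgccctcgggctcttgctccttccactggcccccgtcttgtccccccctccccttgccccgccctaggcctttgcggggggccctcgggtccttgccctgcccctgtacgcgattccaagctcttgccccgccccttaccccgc
Gclm, chr3:122245307-122245556, plus strand: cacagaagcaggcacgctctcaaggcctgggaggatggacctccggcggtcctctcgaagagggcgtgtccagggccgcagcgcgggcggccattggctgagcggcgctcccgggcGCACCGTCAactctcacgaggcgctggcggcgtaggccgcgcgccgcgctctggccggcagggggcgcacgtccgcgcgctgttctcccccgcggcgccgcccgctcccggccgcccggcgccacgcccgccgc
Txnrd1, second of 3 windows, chr10:82858956-82859205, plus strand: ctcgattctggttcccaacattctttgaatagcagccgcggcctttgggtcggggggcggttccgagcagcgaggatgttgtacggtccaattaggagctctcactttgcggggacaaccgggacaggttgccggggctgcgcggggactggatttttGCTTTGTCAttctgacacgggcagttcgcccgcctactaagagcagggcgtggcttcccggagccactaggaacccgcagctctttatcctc
Srxn1, chr2:152105274-152105523, plus strand: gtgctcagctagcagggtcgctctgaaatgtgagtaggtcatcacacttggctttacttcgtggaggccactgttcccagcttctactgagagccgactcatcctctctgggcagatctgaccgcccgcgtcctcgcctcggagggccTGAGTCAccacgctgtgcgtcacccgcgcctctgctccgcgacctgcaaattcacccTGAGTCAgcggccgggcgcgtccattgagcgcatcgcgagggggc
The match began 240 bases before the start in Nfe2l2, 134 in Gclm and 92 in Txnrd1, and in the latter pair it lay on the opposite strand. Srxn1 held TGANTCA at 102 and 45 bases before the start. The site at 45 bases is followed by GC, so that it reads like the searched core with G in place of C. A core written with either base was not searched. All 9 windows were searched for TGANTCA, and that of Srxn1 was the only 1 of them with such a site. At least 1 such site was present in 7.81% of all windows and 5.4% of those of tested genes. At least 2 were present in 0.460% of all windows. Of the 4 genes with a core, Gclm, Txnrd1 and Srxn1 rose and Nfe2l2 fell. No match was found in the windows of Keap1, Nqo1 and Slc7a11, which says only that these letters are not in these windows.

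Levels are given as FPKM, which divides by transcript length, so that genes can be compared. Txnrd1 was the most abundant of the 10 genes and Slc7a11 the least in both groups. In LLC alone, the order of the mean FPKM was Txnrd1, Nfe2l2, Gsta4, Hmox1, Gclm, Nqo1, Gclc, Srxn1, Keap1 and Slc7a11, and Hmox1 and Gclm were the only neighbours whose libraries overlapped. In LLC+BMSC, Gclm stood at rank 3, Gsta4 at rank 5 and Nqo1 at rank 8. Gsta4 overlapped with Gclc there, and Nqo1 with Keap1.

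**Figure D1:**
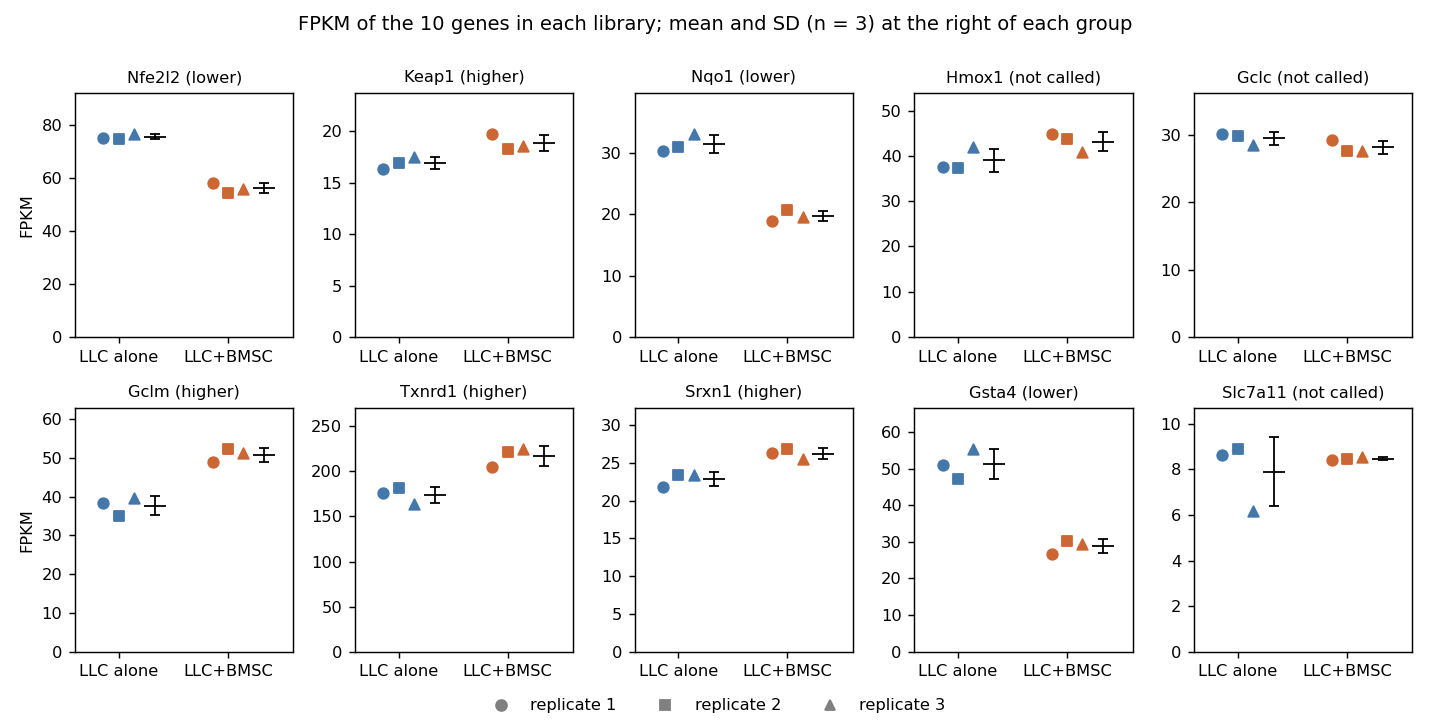
FPKM of the 10 genes (y axis, from 0, a scale per gene) in the 3 libraries of LLC alone (blue) and the 3 of LLC+BMSC (orange), marked by replicate number, with the mean and SD of each group (n = 3) at its right. Nfe2l2, Nqo1 and Gsta4 were lower in every LLC+BMSC library than in any LLC alone library, Keap1, Gclm, Txnrd1 and Srxn1 were higher, and the groups overlapped for Hmox1, Gclc and Slc7a11.

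The sensor pair was taken first. Nfe2l2, which encodes NRF2 itself, was at 75.4, 74.9 and 76.9 FPKM in the 3 LLC alone libraries and at 58.4, 54.6 and 55.8 FPKM in the 3 LLC+BMSC libraries. The libraries of a group lay close together and the groups were well apart. Nfe2l2 fell by 0.45 on the log2 scale (SE 0.06, adjusted p = 0.000298 by edgeR), from 75.8 ± 1.04 to 56.3 ± 1.91 FPKM (SD, n = 3). Keap1, the adaptor that marks NRF2 for degradation, was at 16.4, 16.9 and 17.5 FPKM in LLC alone and at 19.8, 18.3 and 18.6 FPKM in LLC+BMSC. The lowest LLC+BMSC library exceeded the highest LLC alone library by less than the range within either group. Keap1 rose by a log2 fold change of 0.20 (SE 0.06, adjusted p = 0.0194 by edgeR), and this call was lost without LLC alone replicate 1 (adjusted p = 0.0745), without LLC+BMSC replicate 1 (0.0539) and without LLC+BMSC replicate 3 (0.0573). With a trend over transcript length removed it was 0.15, and with trends over length and GC content removed 0.11, both still called (adjusted p = 0.0219 and 0.0287 by edgeR). The ratio of the FPKM of Nfe2l2 to that of Keap1, chosen after their values were seen, was 4.61, 4.42 and 4.39 in LLC alone and 2.95, 2.98 and 3.00 in LLC+BMSC. In an exact two-sided permutation test of this ratio p was 0.1, the smallest value that 3 against 3 libraries allow. The same smallest value of 0.1 was reached by the FPKM of the 7 genes called, and the exact permutation p was 0.2 for Hmox1 and for Gclc and 1 for Slc7a11.

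Nqo1 and Gsta4, which encode enzymes of detoxification, showed the largest differences of the 10 genes, and both fell. Nqo1, the quinone reductase often read as a marker of NRF2 activity, was at 30.4, 31.0 and 33.2 FPKM in LLC alone and at 18.9, 20.7 and 19.6 FPKM in LLC+BMSC. Its highest LLC+BMSC library was far under its lowest LLC alone library. Nqo1 fell by 0.70 on the log2 scale (SE 0.06, adjusted p = 5.47e-05 by edgeR). Gsta4, a glutathione S-transferase that acts on the lipid peroxidation product 4-hydroxynonenal, was at 50.9, 47.3 and 55.5 FPKM in LLC alone and at 26.6, 30.3 and 29.5 FPKM in LLC+BMSC. The spread between the LLC alone libraries was wider than for Nqo1, and the groups did not overlap. Gsta4 fell by 0.85 on the log2 scale (SE 0.08, adjusted p = 7.03e-05 by edgeR).

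The 2 subunits of glutamate-cysteine ligase, which carries out the rate-limiting step of glutathione synthesis, differed from each other. Gclm, the modifier subunit, was at 38.3, 35.1 and 39.7 FPKM in LLC alone and at 48.8, 52.4 and 51.2 FPKM in LLC+BMSC. Each LLC+BMSC library was above each LLC alone library. Gclm rose by a log2 fold change of 0.41 (SE 0.07, adjusted p = 0.00104 by edgeR). Its estimated count was fractional in 6 of 6 libraries, so that some of its reads were shared with other sequences, and its exons overlap the pseudogene Gm6061 on the same strand in GENCODE M21. Gclc, the catalytic subunit, was at 30.2, 29.8 and 28.4 FPKM in LLC alone and at 29.2, 27.6 and 27.6 FPKM in LLC+BMSC. The groups overlapped, and the log2 fold change of -0.09 had a 95% interval from -0.22 to 0.05 (adjusted p = 0.222 by edgeR). The ratio of Gclm to Gclc in FPKM, also chosen after the values were seen, was 1.27, 1.18 and 1.40 in LLC alone and 1.67, 1.90 and 1.85 in LLC+BMSC, and the groups did not overlap. Slc7a11, the cystine transporter of system xc- that supplies the cysteine for this step, was at 8.62, 8.92 and 6.16 FPKM in LLC alone and at 8.42, 8.45 and 8.56 FPKM in LLC+BMSC. LLC alone replicate 3 was the low library and the other 5 lay between 8.42 and 8.92 FPKM. The log2 fold change of Slc7a11 was 0.08 (SE 0.13, adjusted p = 0.597 by edgeR), with a 95% interval from -0.22 to 0.38, and without LLC alone replicate 3 it was -0.06 (adjusted p = 0.215). Its count, like that of Gclm, was fractional in 6 of 6 libraries, and those of the other 8 genes were whole.

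In the thioredoxin arm, Txnrd1 and Srxn1 were higher. Txnrd1, the cytosolic thioredoxin reductase, was at 176.5, 181.1 and 163.7 FPKM in LLC alone and at 204.8, 221.3 and 225.3 FPKM in LLC+BMSC. The groups did not overlap. Txnrd1 rose by a log2 fold change of 0.29 (SE 0.06, adjusted p = 0.00525 by edgeR). Srxn1, sulfiredoxin, which restores overoxidized peroxiredoxins, was at 21.9, 23.4 and 23.5 FPKM in LLC alone and at 26.3, 26.9 and 25.5 FPKM in LLC+BMSC. Its groups did not overlap either, and the gap between them was little wider than the range within a group. Srxn1 rose by a log2 fold change of 0.17 (SE 0.06, adjusted p = 0.0335 by edgeR), and the call was lost without any of 5 of the 6 libraries taken singly (adjusted p from 0.0513 to 0.133). LLC alone replicate 3 was the library whose removal kept it.

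Hmox1, heme oxygenase 1, which breaks heme into biliverdin, iron and carbon monoxide, was at 37.7, 37.4 and 42.1 FPKM in LLC alone and at 45.0, 43.7 and 40.9 FPKM in LLC+BMSC. LLC alone replicate 3 lay above LLC+BMSC replicate 3, and the other libraries were separated. The log2 fold change of Hmox1 was 0.12 (SE 0.07, adjusted p = 0.177 by edgeR) with a 95% interval from -0.05 to 0.29. Without LLC alone replicate 3 it was 0.19 (adjusted p = 0.014), and Hmox1 passed the test.

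**Figure D2:**
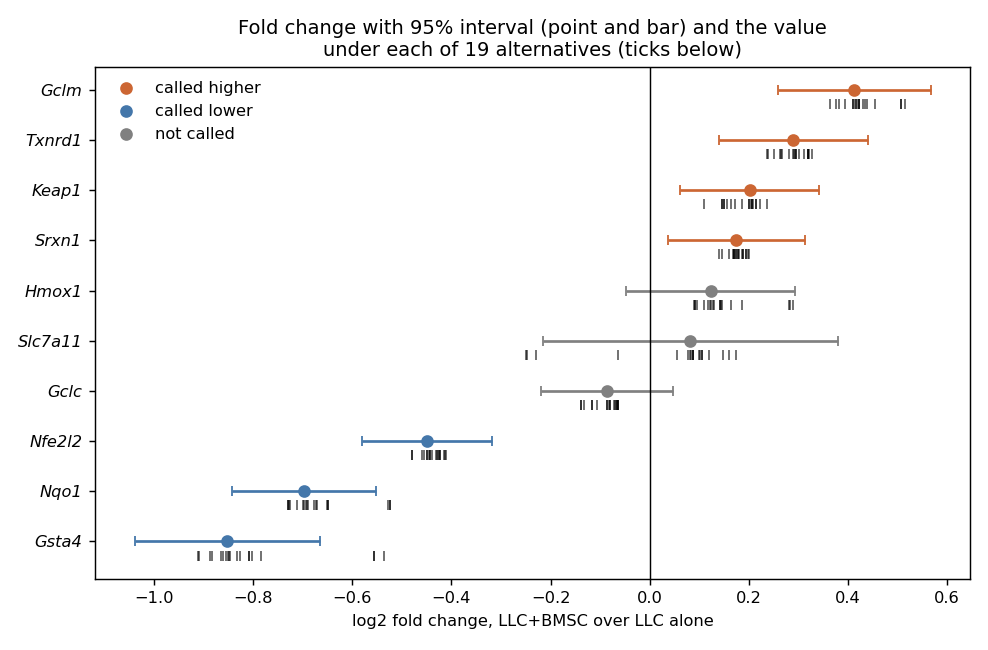
Log2 fold change of each gene, LLC+BMSC over LLC alone (x axis), as a point with its 95% interval, and its value under each of 19 other ways of fitting as ticks below the point. Nfe2l2, Nqo1, Gsta4 and Gclm kept their direction and their call in 19 of 19, and the ticks of Slc7a11 lie on both sides of 0.

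A trend over transcript length ran with the groups and was strongest in 1 library. In LLC alone replicate 3, genes with the shortest transcripts (the lowest of 5 equal bins by length) deviated by a median of 0.31 (log2) from the mean of the 6 libraries and those with the longest by -0.37. In LLC alone replicates 1 and 2 the values were 0.06 and 0.04 for the shortest and -0.022 and -0.003 for the longest. The 3 LLC+BMSC libraries deviated the other way, by -0.19, -0.09 and -0.11 for the shortest and 0.18, 0.10 and 0.13 for the longest. Among the 10 genes, Gsta4 at 970 bases had the shortest transcript and Slc7a11 at 9227 bases the longest. With a trend over length removed from each library, the fall of Gsta4 was -0.56 and that of Nqo1 -0.52, both still called. Under the same setting Hmox1 was called higher with 0.28 (adjusted p = 0.00103), and Gclc and Slc7a11 were called lower with -0.14 and -0.25 (adjusted p = 0.0106 and 0.000692, edgeR). Nfe2l2 changed little, from -0.45 to -0.41, as did Srxn1, at 0.17 in either fit. All 10 genes were then called, 5 higher and 5 lower, while 34.9% of all tested genes were called higher and 34.8% lower. The part of transcript length in the differences of the short and the long genes was not tested beyond this fit.

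**Figure D3:**
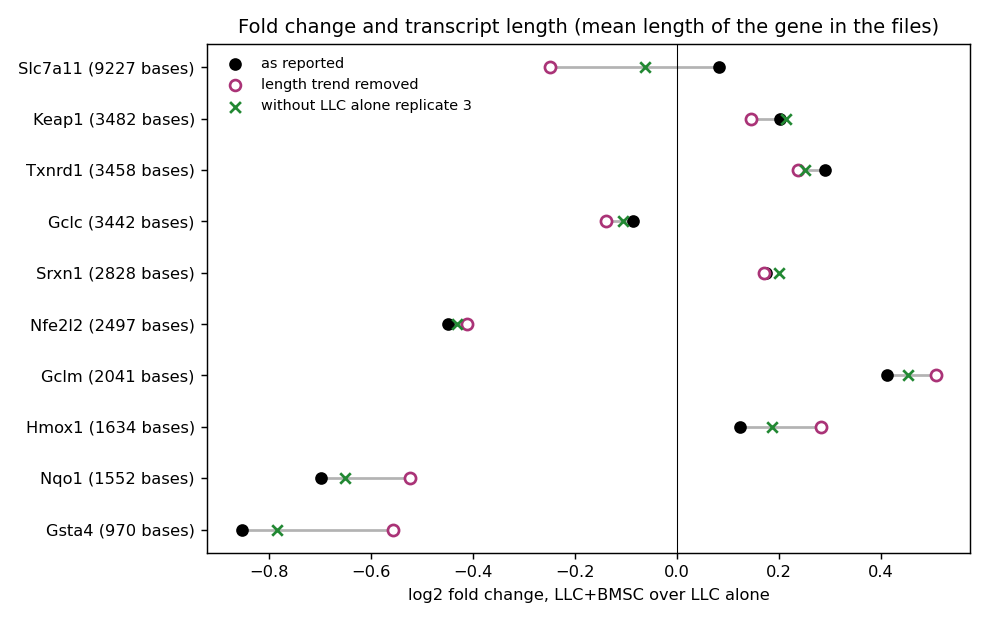
Log2 fold change (x axis) of the 10 genes, ordered by transcript length from Gsta4 (970 bases, bottom) to Slc7a11 (9227 bases, top), as reported (filled circles), with the length trend removed (open circles) and without LLC alone replicate 3 (crosses). Nqo1, Gsta4, Hmox1 and Slc7a11 moved most between the fits, and Slc7a11 crossed 0.

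More than 1 transcript was listed for 3 of the genes, Keap1, Txnrd1 and Gclm. These values are estimates that divide reads among overlapping transcripts and were not tested. Of the 4 Keap1 transcripts, NM_001110307 held most of the estimated count, with 56.8%, 63.3% and 75.1% in LLC alone and 55.2%, 56.9% and 51.9% in LLC+BMSC. The longest Keap1 transcript, NM_016679 with 4470 bases, held 27.1%, 24.7% and 15.6% in LLC alone and 37.1%, 32.7% and 40.0% in LLC+BMSC. Its level went from 2.88 ± 0.75 to 5.49 ± 0.70 FPKM (SD, n = 3), while NM_001110307 was at 11.9 ± 1.84 and 11.7 ± 0.66 FPKM, so that the difference of Keap1 lay mainly in the longest transcript. LLC alone replicate 3, the library with low values for long transcripts, had the lowest share of it. Keap1 also overlaps the antisense gene Gm16754 in GENCODE M21, and whether the counting used strand is not given in the sources used here. Of the 5 Txnrd1 transcripts, NM_001042513 held 68.3% ± 2.98 of the estimated count in LLC alone and 71.3% ± 3.74 in LLC+BMSC. Its level was 120.7 ± 11.9 and 156.4 ± 15.7 FPKM. NM_015762 was at 19.8, 18.3 and 33.1 FPKM in LLC alone and at 36.8, 36.2 and 33.1 FPKM in LLC+BMSC, with LLC alone replicate 3 (33.05) just under LLC+BMSC replicate 3 (33.14). Gclm had a single RefSeq transcript, which held 96.4% and 96.9% of its count in the 2 groups, and 2 transcripts assembled by the authors' pipeline.

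**Figure D4:**
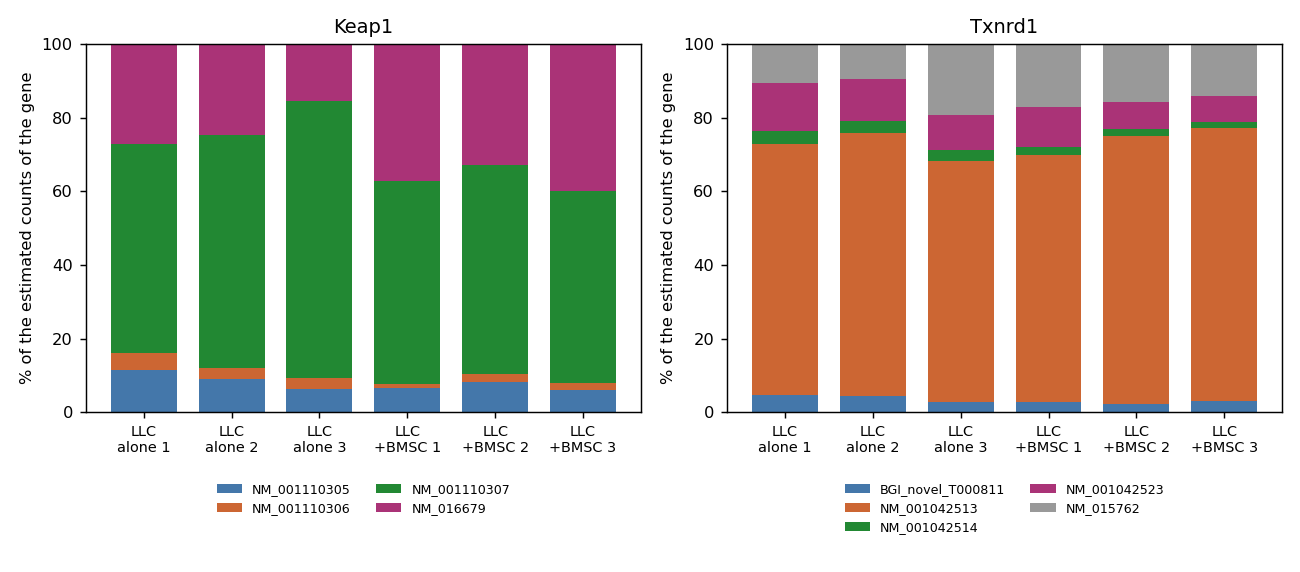
Share of the estimated count of Keap1 (left) and Txnrd1 (right) that each listed transcript held (stacked bars, % of the gene, y axis) in each of the 6 libraries (x axis). The share of NM_016679 in Keap1 was between 15.6% and 27.1% in LLC alone and between 32.7% and 40.0% in LLC+BMSC.

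Other genes of NRF2 control and redox metabolism were read from lists written from general knowledge. Of 126 such genes, 114 could be tested, of which 26 rose (22.8%) and 55 fell (48.2%), beside 31.5% and 31.3% of all tested genes. Their median log2 fold change was -0.22, against 0.01 for all tested genes. The same shares of all tested genes stand behind the counts of each list below. Their median transcript length was 1877 bases against 2886 for all tested genes, and with the length trend removed 35 rose, 52 fell and the median was -0.11, beside 34.9% higher and 34.8% lower among all tested genes. Genes named in what follows were chosen by a rule of size and significance, except where stated.

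Among the 16 regulators of NRF2, 5 rose and 5 fell. Mafk, a small MAF partner of NRF2, fell from 28.9 ± 0.35 to 14.4 ± 0.38 FPKM, a log2 fold change of -1.02 (adjusted p = 3.96e-06 by edgeR). Sqstm1 (p62), which sequesters KEAP1 and is itself an NRF2 target, fell from 723.7 ± 33.2 to 175.5 ± 5.20 FPKM, a log2 fold change of -2.07 (adjusted p = 3.03e-07). Named after their values were seen, 2 genes of the ligase that acts with KEAP1 went opposite ways. Cul3, its scaffold, rose by 0.18 and Rbx1 fell by 0.35 (adjusted p = 0.0171 and 0.0186 by edgeR). With the length trend removed 2 of the 16 rose and 7 fell.

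Around glutathione, 3 of 15 tested genes of synthesis and turnover rose and 8 fell, with a median of -0.37, and with the length trend removed 5 rose and 7 fell, with a median of -0.12. Slc3a2, the heavy chain that pairs with Slc7a11 in system xc- and with other amino acid transporters, fell from 241.0 ± 16.1 to 102.3 ± 3.18 FPKM, a log2 fold change of -1.25 (adjusted p = 5.17e-06 by edgeR), beside the Slc7a11 value of 0.08 that did not pass. Chac1, which degrades glutathione, fell from 49.4 ± 4.82 to 6.76 ± 0.16 FPKM, a log2 fold change of -2.89 (adjusted p = 3.29e-07). Glrx, glutaredoxin, rose from 20.1 ± 2.03 to 70.7 ± 3.95 FPKM, a log2 fold change of 1.80 (adjusted p = 2.85e-06), and Oplah, 5-oxoprolinase, rose by 1.13 at a level near 1 FPKM. Named after its value was seen, Gsr, glutathione reductase, was at 38.9, 40.3 and 40.0 FPKM in LLC alone and at 73.3, 79.6 and 81.1 FPKM in LLC+BMSC, a log2 fold change of 0.95. The 3 glutathione peroxidases that could be tested, named though outside the rule, were Gpx1, Gpx4 and Gpx8, which fell by 0.54, 0.71 and 0.72 on the log2 scale. Their median transcript length was 1016 bases, and their median went from -0.71 to -0.40 with the length trend removed, with 3 of 3 still lower. Of 19 glutathione S-transferases tested beside Gsta4, 2 rose and 11 fell, with Mgst3 at -1.27 and Gstt2 at -1.48, and a median of -0.61. With the length trend removed, 5 of these 19 rose and 9 fell, with a median of -0.33. Members of this family are near-identical in part and their reads can be divided wrongly.

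In the thioredoxin system beside Txnrd1 and Srxn1, 1 of 14 genes rose and 9 fell. Txnip, the inhibitor of thioredoxin, fell from 238.9 ± 2.06 to 46.4 ± 1.06 FPKM, a log2 fold change of -2.39 (adjusted p = 1.02e-07 by edgeR). Sesn2, sestrin 2, fell by 1.25 on the log2 scale, and Prdx5, a peroxiredoxin, rose by 1.02. With the length trend removed 2 of the 14 rose and 6 fell. Of 9 genes that supply NADPH, 2 rose and 4 fell, and 4 rose and 4 fell both without LLC alone replicate 3 and with the length trend removed. Me1, malic enzyme 1, fell from 87.7 ± 1.26 to 40.3 ± 0.94 FPKM, a log2 fold change of -1.14 (adjusted p = 2.09e-06 by edgeR).

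Beside Nqo1, 7 of 22 quinone and xenobiotic genes rose and 12 fell, as many as with the length trend removed, where the median went from -0.31 to -0.19. Akr1c13, an aldo-keto reductase, and Ugt1a6a, a glucuronosyltransferase, fell by 1.46 and 1.10 on the log2 scale. Abcc1, an exporter of glutathione conjugates, rose from 22.8 ± 3.07 to 51.4 ± 2.47 FPKM, and Aldh3a1, an aldehyde dehydrogenase, from 0.23 ± 0.02 to 1.77 ± 0.19 FPKM. Beside Hmox1, 5 of 12 genes of heme and iron rose and 2 fell, or 8 and 3 with the length trend removed, with Slc11a2, an iron transporter, higher by 1.02. The ferritin chains moved apart. Ftl1, the light chain, fell by 0.92 and Fth1, the heavy chain, rose by 0.33 (adjusted p = 8.07e-05 and 0.016 by edgeR), both named after their values were seen. Of 4 superoxide dismutases and catalase, Sod2, the mitochondrial dismutase, rose from 32.5 ± 2.08 to 120.8 ± 6.62 FPKM, a log2 fold change of 1.93 (adjusted p = 1.04e-06 by edgeR), and Sod1, the cytosolic form, named after its value was seen, fell by 0.60. These were the only 2 called of the 4, and with the length trend removed 2 rose and 1 fell.

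**Figure D5:**
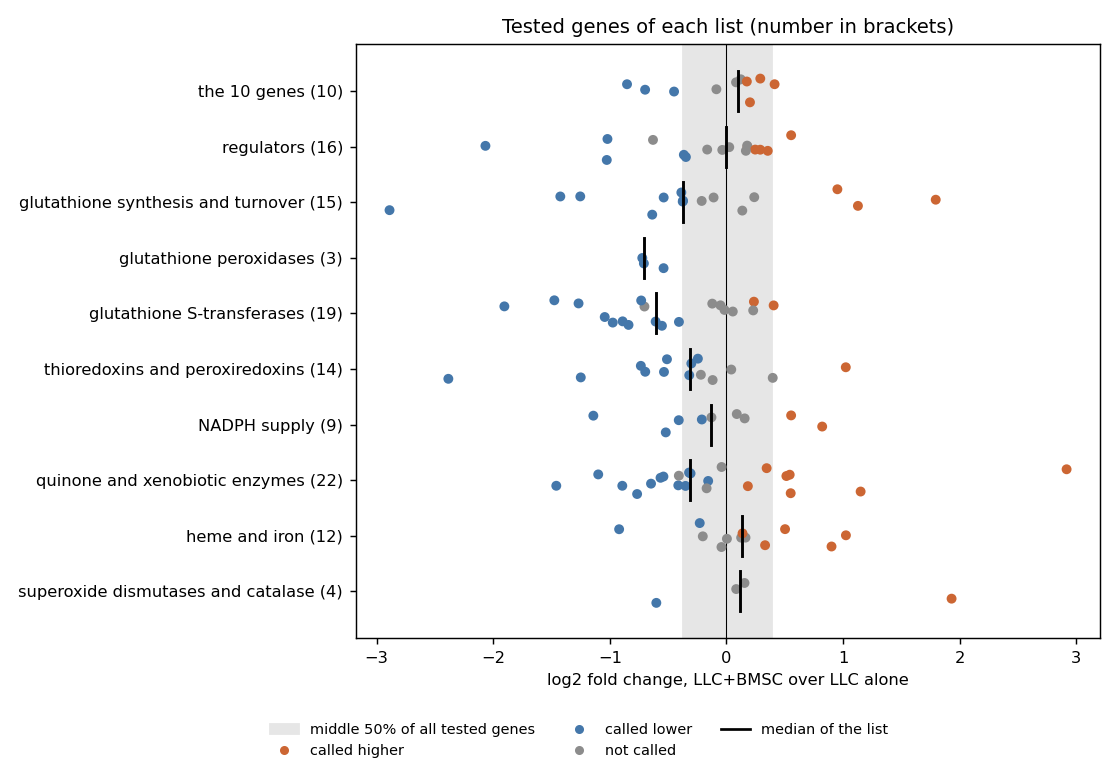
Log2 fold change, LLC+BMSC over LLC alone (x axis), of the tested genes of each list (points, colored by call) with the median of the list (bar) and the middle 50% of all tested genes (grey, -0.37 to 0.39). The 10 genes lie between -0.85 and 0.41, and the other lists hold members on both sides of 0 except the 3 glutathione peroxidases.

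The genes whose pattern over the 6 libraries was most like that of Nfe2l2, by Pearson r of log2 CPM among 10733 genes, were Mcu, Kctd15 and Rhod (r = 0.9996, 0.9996 and 0.9995). Since most of the spread over these libraries lies between the groups, 257 genes had an r over 0.99, and the value describes the likeness only.

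Markers of other cell types moved with the groups. In bulk RNA of sorted cells, fewer cells of a type and less RNA per cell cannot be told apart. The summed level of 10 markers of BMSCs and fibroblasts was 271 to 326 CPM in LLC alone and 670 to 702 CPM in LLC+BMSC, and 8 of 8 that could be tested rose. Thy1 and Cxcl12 were too low to be tested. Both were at 0 in LLC alone, and in LLC+BMSC they were at means of 0.01 and 0.09 FPKM. The groups overlapped for Thy1. Neutrophil markers summed to 0.48 to 0.78 CPM and 18.3 to 21.0 CPM, with 6 of 6 tested higher. Mpo and Elane were at 0 in LLC alone and at means of 0.21 and 0.23 FPKM in LLC+BMSC. Macrophage markers summed to 24.0 to 29.0 CPM and 28.6 to 30.7 CPM, with 4 of 6 tested higher, 1 lower, and Adgre1, C1qa and C1qc at 0 in LLC alone. Lymphocyte markers summed to 0.39 to 0.55 and 2.51 to 2.74 CPM, endothelial markers to 2.98 to 3.93 and 2.38 to 3.11 CPM, and erythroid markers to 9.14 to 9.43 and 11.8 to 12.9 CPM. The 10 genes themselves summed to 1270 to 1320 CPM in LLC alone and 1370 to 1410 CPM in LLC+BMSC. Of 6 epithelial markers, Krt8 was at 95.3 and 110 FPKM, and Krt18, Krt19, Krt7, Epcam and Cdh1 were under 1 FPKM in each library, with Krt19 at 0 in LLC alone. The part of other cells in the differences of the 10 genes was not tested.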

How the data were processed

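RNA of sorted LLC cells was sequenced for 2 groups of 3 libraries, LLC alone and LLC+BMSC, assigned by the sample labels. According to the paper, polyadenylated RNA was sequenced on the BGISEQ-500, whereas the labels name Illumina protocols. The submitters' processing notes name HISAT, StringTie, Cufflinks, GATK and the build mm8, with no role given. The deposited estimated counts, for genes and for transcripts, were not normalized by the authors and were not whole for 21.9% to 23.2% of the genes (a count within 0.005 of a whole number was taken as whole), and the deposited FPKM values divide by length and library total. A table of the authors' FPKM values for the whole series was not used here. For 27 genes whose symbol had turned into a date, the symbol was looked up again by gene identifier.

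Estimated counts were rounded and tested with edgeR 4.0.16 in R 4.3.3 (TMM scaling, filterByExpr, quasi-likelihood test, Benjamini-Hochberg adjustment, threshold 0.05), which kept 13353 genes. The standard error is |log2 fold change| over the root of the F statistic. Summed counts were 33476347 to 46189113 per library, and the biological coefficient of variation was 9.92%. The 10 genes and the lists were chosen with earlier results of these data known. Named were the 10 genes and, in each list, up to 4 genes by adjusted p among those that changed by 1 or more on the log2 scale with a mean of at least 1 FPKM in a group. No set test was run. DESeq2 1.42.0, limma 3.58.1 on log2(FPKM + 1), other scalings and filters, each library left out, a block on the replicate number and removal of length and GC trends (lowess over genes, span 0.3) were tried as alternatives.

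No pairing of the samples by replicate number was seen. Deviations of same-numbered libraries from their group means correlated by 0.08, -0.11 and 0.06, and those of other pairs by -0.16 to 0.15. With 3 libraries a group this check cannot exclude a pairing. LLC alone replicates 1 and 2, and LLC+BMSC replicates 2 and 3, were closer to each other than the other pairs, with a chi-square per gene of 4.69 and 2.98 against 18.9 to 59.3, which is above sampling noise, and were kept as separate libraries. An alternative counted each such pair as 1 sample. Promoter windows were taken from RefSeq (GRCm38.p6) by gene identifier, for 7 of the 10 genes, while the deposited files hold no coordinates.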

Additional observations from a re-analysis of the deposited data

How the results depend on the processing

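Among the 10 genes, Nfe2l2 (-0.48 to -0.41), Nqo1 (-0.73 to -0.52), Gsta4 (-0.91 to -0.54) and Gclm (0.36 to 0.52) kept direction and call in 19 of 19 alternatives, Txnrd1 in 18, Keap1 (0.11 to 0.24) in 15 and Srxn1 (0.14 to 0.20) in 11. The number of the 10 called higher was 2 to 5 with each library left out, beside 3617 to 4736 of all tested genes. The filter was run anew in each of these fits, so that the number of tested genes could differ. The number of the 10 called higher was 5 without LLC alone replicate 3, beside 35% of all tested genes. It was 2 without LLC alone replicate 1, LLC+BMSC replicate 1 or LLC+BMSC replicate 3. With the closest pair of each group summed, which leaves 2 samples a group, 1 of the 10 was higher and 3 were lower. Of the 114 other NRF2 and redox genes, 17 were then higher and 46 lower. In that fit 24.3% of all tested genes were called higher and 23.9% lower. The number called lower was 5 with the length trend removed, with the length and GC trends removed, and with the replicate block and the length trend removed. Of all 13353 tested genes, 34.8%, 35.6% and 4628 genes were called lower in these fits. Slc7a11 turned to -0.063 without LLC alone replicate 3 (range with each library left out -0.063 to 0.174), to -0.25 with the length trend removed, to -0.23 with length and GC and to -0.25 with the block and length; its direction rests on LLC alone replicate 3. With a threshold of 0.001 and a change of 1 or more on the log2 scale required, 910 of 13353 tested genes were higher and 723 lower. Of the 10, 0 and 0 passed, and of the 114 other redox genes 7 and 13. With the replicate block, 4161 of 13353 genes were higher and 4058 lower. Of the 10, 3 were higher and 3 lower, with Srxn1 lost (adjusted p = 0.0717 by edgeR). The calls of Keap1, Srxn1 and Hmox1 and the direction of Slc7a11 changed with 1 library left out.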
